A study of Homo sapiens with 12 samples.

Results

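Heme synthesis and heme breakdown were followed through 9 genes: the synthesis genes ALAS1, ALAD, UROD, CPOX and FECH, and the breakdown genes HMOX1, HMOX2, BLVRA and BLVRB. They were taken by symbol from a table of 70116 gene rows, of which 16197 had enough counts to be tested. Of the 9 genes, 8 were among those tested, and HMOX2 was listed at 0 in every library. The cells were MiaPaCa-2, an established human pancreatic cancer line. All 4 groups were transfected with small interfering RNA (siRNA), a short duplex through which the cell destroys transcripts that match it. The groups were siControl, siSLC25A1, siACLY and siACO1, with 3 libraries each. SLC25A1 encodes the mitochondrial citrate carrier, ACLY encodes ATP citrate lyase, and ACO1 encodes cytosolic aconitase, which also binds iron-responsive elements in RNA when it lacks its iron-sulfur cluster. The number of siRNAs per target and the time after transfection were not stated in the labels.

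Heme is made from glycine and succinyl-CoA by a chain of enzymes that starts and ends in mitochondria, with the middle steps in the cytosol. The first enzyme, encoded in most tissues by ALAS1, sets the pace and is held back by heme itself. Heme oxygenases open the heme ring to biliverdin, releasing iron and carbon monoxide, and biliverdin reductases turn biliverdin into bilirubin. HMOX1 is the inducible heme oxygenase, repressed by the heme-binding factor BACH1 and activated by NRF2.

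Library totals ran from 24159424 to 43792811 counts. The targeted transcripts stood at 8.78% (SLC25A1), 7.25% (ACLY) and 3.75% (ACO1) of siControl in their own knockdowns. The epithelial keratin KRT8 ran from 1263 to 2436 CPM (counts scaled to a common library size), and EPCAM was at most 0.0776 CPM. ALAS2, the erythroid form of the first enzyme, had 0 to 3 counts, and the erythroid gene HBB and the leukocyte gene PTPRC had 0 counts in all 12 libraries. The fibroblast genes COL1A1, PDGFRB and DCN were at most 0.25 CPM, whereas COL1A2 ran from 783.8 to 1592 CPM. By its counts, siACO1 replicate 3 stood apart. The chi-square per degree of freedom was 11.8 and 12.5 against the other siACO1 libraries. It was between 2.31 and 5.85 for every other pair of replicates. The Pearson r of log2 CPM was 0.9912 and 0.9917 for the pairs with siACO1 replicate 3, near the 0.9915 to 0.9918 within siSLC25A1. This library was the highest of its group for 7 of the 8 tested heme genes, which was not counted over all genes. Changes against siControl in siACO1 are therefore given with and without it for the 8 tested genes. In bulk RNA, fewer cells of a type and less RNA per cell cannot be told apart.

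Levels below are CPM after TMM scaling (trimmed mean of M values), which compare 1 gene between libraries. A gene was called where the adjusted p of edgeR's quasi-likelihood test was under 0.05. In siSLC25A1 against siControl, 2 of the 8 tested genes rose and 3 fell, where 19.6% of all tested genes were called in either direction. In siACLY 2 rose and 3 fell, against 36.7% of all tested genes called. In siACO1 none rose and 4 fell, against 37.1% called, and the same number was called without replicate 3. The median log2 fold change of the 8 genes was -0.13 in siSLC25A1, 0.01 in siACLY and -0.16 in siACO1, and that of all tested genes was within 0.01 of 0 in each. The 3 comparisons share the siControl libraries. ALAS1 and HMOX1 rose in siSLC25A1 and siACLY and fell in siACO1, whereas CPOX and BLVRB fell in all 3 knockdowns.

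**Figure D1:**
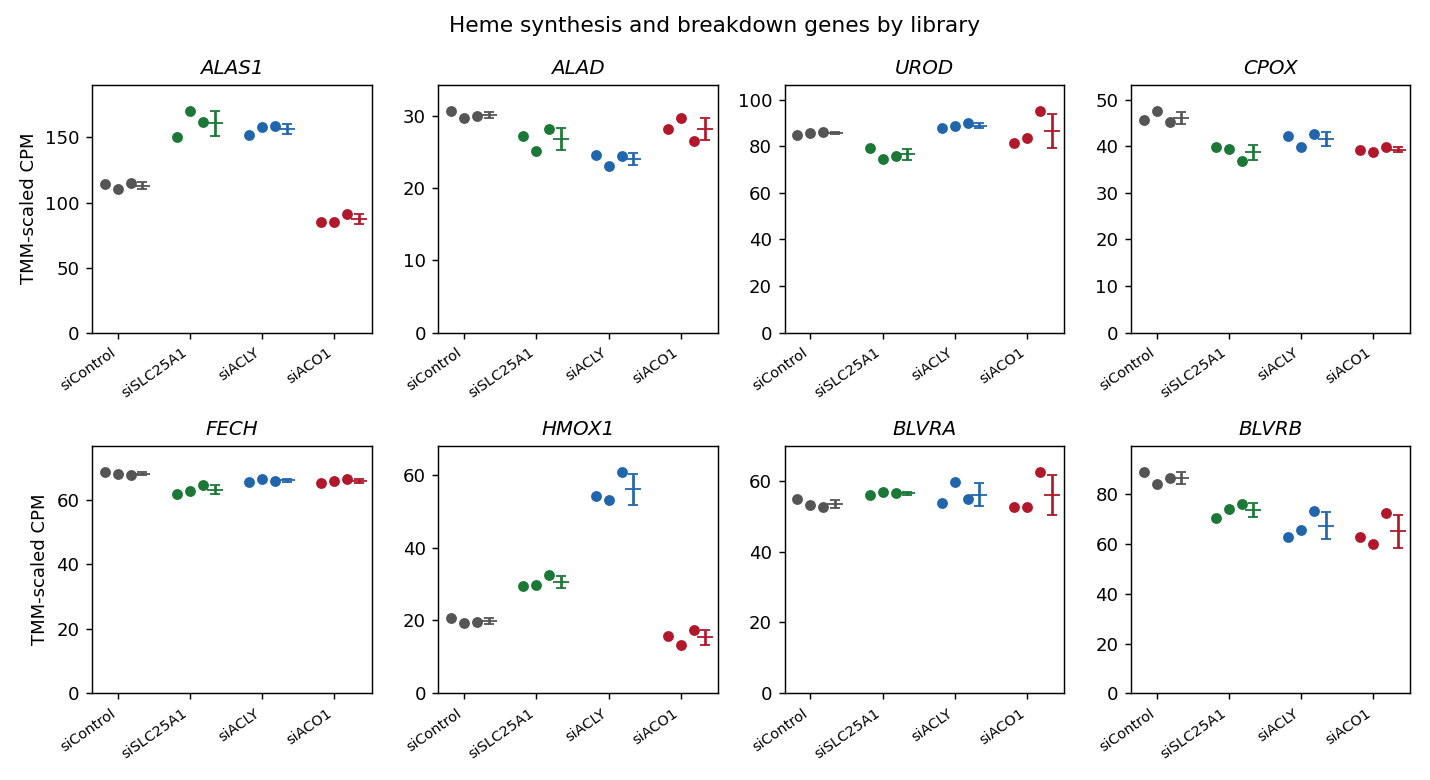
TMM-scaled CPM of the 8 tested heme genes in each of the 12 libraries, with points for single libraries and bars for the mean and SD of 3 libraries per group; each vertical axis starts at 0. ALAS1 and HMOX1 lie above siControl in siSLC25A1 and siACLY and below it in siACO1.

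ALAS1 (chr3:52198086-52214327, plus strand, GRCh38, GENCODE 29) encodes 5-aminolevulinate synthase, the first and rate-limiting enzyme. Its level was 113.9, 110.1 and 114.9 CPM in siControl and 150.5, 170.0 and 161.8 CPM in siSLC25A1. It was 152.2, 158.4 and 159.0 CPM in siACLY, and 85.1, 85.2 and 91.4 CPM in siACO1. Every siSLC25A1 and siACLY library was above every siControl library, and every siACO1 library was below. The log2 fold change was 0.51 in siSLC25A1 (adjusted p = 1.68e-09) and 0.47 in siACLY (adjusted p = 2.53e-09), and ALAS1 fell by 0.37 in siACO1 (adjusted p = 2.13e-07). Without siACO1 replicate 3 the last value was -0.41. Between siSLC25A1 and siACLY the difference was 0.04, with a 95% interval from -0.05 to 0.13 (adjusted p = 0.553).

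The RefSeq promoter table (GRCh38.p14) held 8 of the 9 genes; HMOX1 was not matched. The 3 stretches printed here belong to the matched genes called in all 3 knockdowns, ALAS1, CPOX and BLVRB. They end at the annotated start site or before it and leave out bases inside annotated exons. They lie at chr3:52197833-52198082 (plus strand), chr3:98593724-98593861 (minus strand) and chr19:40465841-40465995 (minus strand), and are written 5′ to 3′ on the strand of the gene. Capitals mark matches on either strand to the GC box GGGCGG and, in ALAS1, also to the TATA box letters TATAAA.
ALAS1: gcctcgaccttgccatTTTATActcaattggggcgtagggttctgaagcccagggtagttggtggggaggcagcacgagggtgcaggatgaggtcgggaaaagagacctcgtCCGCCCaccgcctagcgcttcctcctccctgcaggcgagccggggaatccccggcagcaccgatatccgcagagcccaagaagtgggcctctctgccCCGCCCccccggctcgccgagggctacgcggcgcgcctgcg
CPOX: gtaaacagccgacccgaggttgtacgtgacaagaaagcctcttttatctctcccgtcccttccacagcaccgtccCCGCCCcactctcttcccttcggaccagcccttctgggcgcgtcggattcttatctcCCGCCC
BLVRB: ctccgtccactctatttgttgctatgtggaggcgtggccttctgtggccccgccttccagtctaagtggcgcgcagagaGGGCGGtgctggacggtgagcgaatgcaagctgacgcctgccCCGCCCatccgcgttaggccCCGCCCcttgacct
Within the 250 bases before the start, the GC box letters occurred 2 times for ALAS1, 3 times for CPOX and 6 times for BLVRB. At least 1 GC box was present in 42.6% of the 35116 windows in the table, and the TATA box letters in 10.7%. None of the 3 windows held the antioxidant response element core TGACNNNGC (10.9% of windows), the NRF1 core TGCGCANGC (3.7%) or the E-box CACGTG (6.3%). A match describes letters only.

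ALAD (chr9:113386317-113401333, minus strand) encodes the enzyme that joins 2 molecules of 5-aminolevulinate into porphobilinogen. It was at 30.7, 29.8 and 30.0 CPM in siControl and 24.6, 23.1 and 24.5 CPM in siACLY, with every siACLY library below every siControl library. It fell by 0.32 on the log2 scale in siACLY (adjusted p = 0.00015). In siSLC25A1 it was at 27.2, 25.2 and 28.2 CPM, also below all siControl libraries, but the change of -0.17 was not called (adjusted p = 0.0631). With only siControl and siSLC25A1 in the fit the adjusted p was 0.0407, and without siACO1 replicate 3 it was 0.0361. In siACO1 the change was -0.10 (adjusted p = 0.24), and -0.06 without replicate 3.

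UROD (chr1:45012147-45015575, plus strand) encodes uroporphyrinogen decarboxylase, which works in the cytosol. Its level was 85.0, 85.7 and 85.9 CPM in siControl and 79.3, 74.6 and 75.7 CPM in siSLC25A1, and the groups did not overlap. It fell by 0.16 in siSLC25A1 (adjusted p = 0.0231). This call was lost when any 1 siControl library, or siSLC25A1 replicate 2 or 3, was left out, with adjusted p between 0.058 and 0.102. The change was 0.05 in siACLY and 0.02 in siACO1, neither of them called, and the siACO1 value was -0.06 without replicate 3.

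CPOX (chr3:98579446-98593723, minus strand) encodes coproporphyrinogen oxidase of the mitochondrial intermembrane space. It was at 45.6, 47.5 and 45.1 CPM in siControl, 39.9, 39.4 and 36.7 CPM in siSLC25A1, 42.2, 39.8 and 42.7 CPM in siACLY, and 39.2, 38.7 and 39.8 CPM in siACO1. All 9 knockdown libraries were below all 3 siControl libraries. The log2 fold changes were -0.25 in siSLC25A1 (adjusted p = 0.000876), -0.15 in siACLY (adjusted p = 0.028) and -0.23 in siACO1 (adjusted p = 0.000887, and -0.24 without replicate 3). The siACLY call was lost with library totals alone (-0.10, adjusted p = 0.126), with no filter on low counts, and without siControl replicate 1 or 2 or siACLY replicate 2.

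FECH (chr18:57548283-57586772, minus strand) encodes ferrochelatase, which inserts iron into protoporphyrin as the last step. It ran from 67.6 to 68.5 CPM in siControl and from 61.8 to 66.5 CPM over the 9 knockdown libraries, all of them lower than siControl. The log2 fold changes were -0.11 in siSLC25A1 (95% interval -0.20 to -0.02, adjusted p = 0.0898), -0.04 in siACLY and -0.05 in siACO1, the last being -0.06 without replicate 3. None of them was called.

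**Figure D2:**
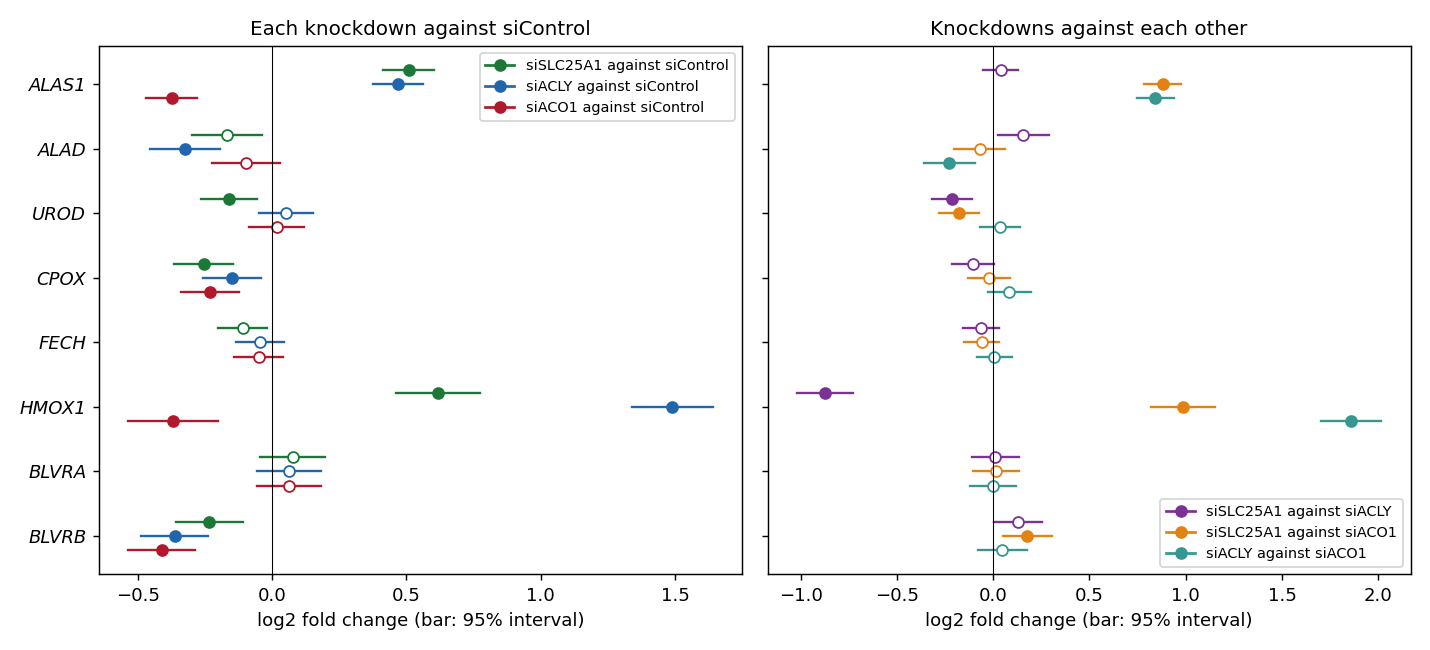
Log2 fold change of each tested heme gene in each knockdown against siControl (left panel), with 95% intervals from the edgeR fit; the right panel shows the knockdowns against each other, and filled points are called. In the left panel the HMOX1 value in siACLY, 1.49, lies farthest from 0, and in the right panel that of siACLY against siACO1, 1.86, does; the FECH and BLVRA values lie near 0 in all 3 knockdowns.

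HMOX1 (chr22:35380361-35394214, plus strand), the inducible heme oxygenase, had the largest change of the 8 tested genes in siSLC25A1 and siACLY, but not in siACO1, where BLVRB changed more. It was at 20.8, 19.2 and 19.7 CPM in siControl, 29.6, 29.6 and 32.5 CPM in siSLC25A1, 54.2, 53.0 and 60.7 CPM in siACLY, and 15.7, 13.3 and 17.3 CPM in siACO1. No 2 groups overlapped. The log2 fold change was 0.62 in siSLC25A1 (adjusted p = 6.57e-07) and 1.49 in siACLY (adjusted p = 2.89e-15). HMOX1 fell by 0.37 in siACO1 (adjusted p = 0.000624), and the value was -0.47 without replicate 3. ALAS1 also stood at -0.37 in siACO1, and at -0.41 without that replicate. The HMOX1 change in siACLY ranked 228 by size among the 16197 genes tested in that comparison. HMOX1 was higher in siACLY than in siSLC25A1, with a difference of -0.87 for siSLC25A1 minus siACLY (adjusted p = 1.77e-10).

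**Figure D3:**
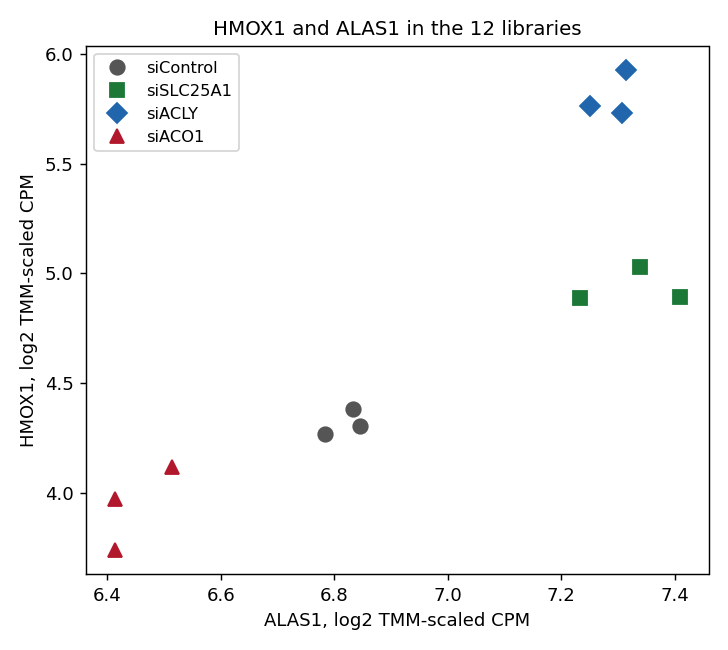
HMOX1 against ALAS1 in the 12 libraries, both as log2 TMM-scaled CPM, with 1 symbol per group. The 4 groups form separate clusters; siSLC25A1 and siACLY lie at like ALAS1 levels but apart in HMOX1.

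HMOX2 (chr16:4474690-4510347, plus strand), the constitutive heme oxygenase, was listed at 0 counts in all 12 libraries. Its neighbour NMRAL1, which overlaps it on the opposite strand, had 0 to 1 counts, and HSF1, the heat shock factor that most cells express, had 0 to 5. TMEM14C, of the transport list below, also had 0 to 5. The counting tool and annotation are not given, so a count of 0 does not show that the HMOX2 transcript is absent. No level or fold change was read for HMOX2.

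BLVRA (chr7:43758680-43807342, plus strand) encodes biliverdin reductase A. It ran from 52.5 to 54.8 CPM in siControl and from 52.6 to 62.4 CPM over the knockdown libraries, and none of its changes against siControl was called. The values were 0.08 in siSLC25A1, 0.07 in siACLY and 0.06 in siACO1, the last being -0.03 without replicate 3. BLVRB (chr19:40447765-40465840, minus strand) encodes biliverdin reductase B, which also reduces flavins. It was at 88.9, 84.0 and 86.6 CPM in siControl, 70.7, 74.1 and 76.1 CPM in siSLC25A1, 63.1, 65.8 and 73.5 CPM in siACLY, and 62.8, 60.0 and 72.4 CPM in siACO1. Each knockdown library was below each siControl library. BLVRB fell by 0.23 in siSLC25A1 (adjusted p = 0.0068), by 0.36 in siACLY (adjusted p = 3.18e-05) and by 0.41 in siACO1 (adjusted p = 5.94e-06). Without siACO1 replicate 3 the last value was -0.50.

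The knockdowns were also set against each other. In siSLC25A1 against siACLY, 2 of the 8 tested genes were called, where 33.8% of all tested genes were. They were HMOX1 and UROD, both lower in siSLC25A1, UROD by a log2 difference of -0.21 (adjusted p = 0.00142). Without siACO1 replicate 3 the number was 4, with ALAD (0.16, adjusted p = 0.0334) and BLVRB (0.14, adjusted p = 0.0198) added. Over all tested genes, 6332 of 16601 were then called, where 5472 of 16197 were called with that library. In siSLC25A1 against siACO1, 3 were higher and 1 was lower, against 42.1% of all tested genes called. ALAS1 was higher by 0.88 (adjusted p = 2.96e-15), HMOX1 by 0.99 (adjusted p = 4.46e-11) and BLVRB by 0.18 (adjusted p = 0.0232). The BLVRB call was lost with library totals alone, and without siSLC25A1 replicate 2 or 3 or siACO1 replicate 1 or 2, with values from 0.12 to 0.18, and the groups overlapped. UROD was lower, at -0.18 (adjusted p = 0.00535), a call that was lost without siACO1 replicate 3 (-0.10, adjusted p = 0.0645). In siACLY against siACO1, 2 were higher and 1 was lower, and the share of all tested genes called was again 42.1%. ALAS1 was higher by 0.84 (adjusted p = 1.03e-14), HMOX1 by 1.86 (adjusted p = 3.34e-17), and ALAD was lower, at -0.23 (adjusted p = 0.0048). With siACO1 replicate 3 left out, ALAS1 was higher than in siACO1 by 0.92 in siSLC25A1 and 0.87 in siACLY, HMOX1 by 1.09 and 1.95, BLVRB by 0.27 in siSLC25A1, and ALAD was at -0.27 in siACLY, all of them called.

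To compare levels between genes, CPM was divided by the exon length of each gene in kilobases. That length merges all annotated exons of all transcripts of the gene, and can exceed the length of the transcript expressed. The order therefore depends on the annotation as well as on the level, and the SD measures only the spread between libraries. In siControl the order was BLVRB at 51.2 ± 1.45 (SD, n = 3), ALAS1 at 44.6 ± 0.999, UROD at 29.4 ± 0.173, BLVRA at 29.4 ± 0.634, FECH at 15.2 ± 0.107, CPOX at 14.2 ± 0.381, HMOX1 at 8.28 ± 0.345 and ALAD at 6.05 ± 0.0914 CPM per kilobase. UROD and BLVRA overlapped, and no other neighbours in that order did. In siACLY HMOX1 was at 23.3 ± 1.73, above FECH and CPOX. ALAS1 was above BLVRB in both siSLC25A1 (63.4 ± 3.86 against 43.6 ± 1.62) and siACLY (61.7 ± 1.48 against 39.9 ± 3.21).

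Among 8752 genes whose mean reached 10 CPM, the 5 whose log2 CPM was most like HMOX1 over the 12 libraries were INO80C (Pearson r = 0.982), ARFGAP2 (0.981), DCTN4 (0.977), RCAN1 (0.977) and SEPHS2 (0.974). RCAN1, a regulator of calcineurin, rose by 0.31 in siSLC25A1 and 0.60 in siACLY, but its value of -0.04 in siACO1 was not called (adjusted p = 0.592). In siACO1, INO80C (-0.06), ARFGAP2 (-0.05) and SEPHS2 (-0.04) were not called either, and DCTN4 was called lower (-0.18, adjusted p = 0.00151). The 5 most like ALAS1 were PEA15 (0.995), ENSG00000286853 (0.988), SOAT1 (0.988), FERMT1 (0.987) and ERRFI1 (0.986). FERMT1, which encodes the integrin adaptor kindlin-1, had log2 fold changes of 1.16 in siSLC25A1, 0.95 in siACLY and -0.89 in siACO1. These correlations are descriptions over libraries that share 4 group differences.

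Other genes of the pathway were read from 5 lists, and SLC48A1 is in 2 of them. The lists were chosen with earlier results of these data known, so their counts are descriptions. Their counts stand beside a share of all tested genes that rose of 10.3% in siSLC25A1, 18.4% in siACLY and 17.8% in siACO1, and a share that fell of 9.27%, 18.3% and 19.3%. Each pathway gene named below as changed in siACO1 was also called without siACO1 replicate 3, except TXNRD1 and SLC7A11, which are not given without it. Of the 4 other synthesis enzymes 3 were tested, and none was called in siSLC25A1. UROS, which encodes uroporphyrinogen III synthase, fell by 0.12 in siACLY (adjusted p = 0.0358) and by 0.25 in siACO1 (adjusted p = 3.55e-05). The siACLY call was lost with library totals alone, with no filter, without any 1 siControl library, and without siACLY replicate 1 or 2. PPOX, which follows CPOX, rose by 0.37 in siACO1 (adjusted p = 0.000151), but its counts are uncertain, since 24.3% of its exon bases are shared with opposite-strand genes.

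Of 18 genes of heme and porphyrin transport and supply 17 were tested. In siSLC25A1 none rose and 5 fell, in siACLY 2 rose and 7 fell, and in siACO1 1 rose and 11 fell, with median log2 fold changes of -0.11, -0.15 and -0.15. Of all tested genes, 19.6%, 36.7% and 37.1% were called in siSLC25A1, siACLY and siACO1. Without siACO1 replicate 3 the siACO1 counts were 0 and 9, and with library totals alone 2 and 6. The number that fell in siACO1 was also 6 without siControl replicate 3 or siACO1 replicate 2. The number that fell in siSLC25A1 was 3 without siControl replicate 1 or 3, or without any 1 of the siSLC25A1 libraries. SLC25A39, a mitochondrial glutathione carrier, fell by 0.46 in siACLY (adjusted p = 1.15e-09). It also fell by 0.185 in siSLC25A1 (adjusted p = 0.00207) and by 0.177 in siACO1 (adjusted p = 0.00138). TSPO, a porphyrin-binding protein of the outer mitochondrial membrane, fell by 0.41 in siACO1 (adjusted p = 2.75e-06) and by 0.17 in siSLC25A1 (adjusted p = 0.0367). The siSLC25A1 call was lost without any 1 library of siControl or of siSLC25A1. FLVCR2 rose by 0.93 in siACLY (adjusted p = 0.00109) from 1.49 to 2.90 CPM, and SLC46A1 fell by 0.35 in siACLY (adjusted p = 0.0226) and 0.40 in siACO1 (adjusted p = 0.00999). Both SLC46A1 calls were lost without siControl replicate 3, and the siACLY call also with library totals alone and without siACLY replicate 2 or 3. FLVCR2 and SLC46A1 share 26.5% and 61.5% of their exon bases with other genes and are uncertain.

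Among regulators of HMOX1 and ALAS1, 12 of 15 were tested. In siSLC25A1 2 rose and 2 fell, in siACLY 3 rose and 3 fell, and in siACO1 none rose and 6 fell, with medians of 0.04, 0.02 and -0.29, beside 19.6%, 36.7% and 37.1% of all tested genes called. Without siACO1 replicate 3 the number that rose in siSLC25A1 was 4. Of all tested genes, 4131 of 16601 were then called in siSLC25A1, up from 3173 of 16197. MAFK, a small MAF partner of both NRF2 and BACH1, fell by 0.41 in siSLC25A1 (adjusted p = 5.29e-05) and by 0.67 in siACLY (adjusted p = 9.12e-09). MAFK shares 18.1% of its exon bases with an opposite-strand gene. PPARGC1B, a coactivator, fell by 0.25 in siSLC25A1 (adjusted p = 0.0326), 0.55 in siACLY and 0.52 in siACO1. The siSLC25A1 call was lost without any 1 siControl library and without siSLC25A1 replicate 1 or 3. MAFF rose by 0.23 in siACLY (adjusted p = 0.0381) and fell by 0.51 in siACO1. The rise was not called by DESeq2, nor without siControl replicate 1 or 3, or replicate 2 or 3 of siACLY or of siSLC25A1. NFE2L2, which encodes NRF2, fell by 0.18 in siACLY and by 0.64 in siACO1 (adjusted p = 2.35e-11), with 20.9% of its exon bases shared with other genes. BACH1 and ATF4 were chosen after their values were seen. BACH1 rose by 0.23 in siSLC25A1 (adjusted p = 0.00477) and by 0.30 in siACLY (adjusted p = 0.000115). ATF4, a stress-response factor, rose by 0.36 in siSLC25A1 and 0.18 in siACLY and fell by 0.46 in siACO1, and 29.7% of its 31-base stretches occur elsewhere.

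All 14 other targets of NRF2 and BACH1 were tested. In siSLC25A1 3 rose and 4 fell, in siACLY 2 rose and 6 fell, and in siACO1 none rose and 10 fell, with medians of -0.06, -0.12 and -0.38, beside shares of all tested genes called of 19.6%, 36.7% and 37.1%. The number that fell in siACO1 was 11 when its replicate 3 was left out. HMOX1 rose in siACLY while more of these genes fell than rose there. Those that rose in siACLY were GCLM (0.20, adjusted p = 8.99e-05) and SLC7A11 (0.16, adjusted p = 0.0362). By DESeq2 the number that rose there was 1. The 3 that rose in siSLC25A1 were TXNRD1 (0.46), SLC7A11 (0.38) and GCLM (0.15). In siACO1 TXNRD1 (-0.55) and SLC7A11 (-0.44) fell, and GCLM (-0.07) was not called. These 3 genes were named after their values were seen. ABCC2, an export pump for conjugates, fell by 0.29 in siACLY and by 0.73 in siACO1 (adjusted p = 7.13e-13). OSGIN1, an oxidative-stress response gene, fell by 0.69 in siACO1 (adjusted p = 6.05e-08) and by 0.23 in siSLC25A1 (adjusted p = 0.0412). The siSLC25A1 call was lost without any 1 siControl library, siSLC25A1 replicate 1 or 2, or siACLY replicate 1. OSGIN1 shares 13.9% of its exon bases with another gene. FTL, the ferritin light chain, fell by 0.41 in siACLY and 0.61 in siACO1, and SRXN1, a sulfiredoxin, fell by 0.56 in siACO1. FTL shares 33.3% of its 31-base stretches with other genes and SRXN1 85.0% of its exon bases, so both are uncertain.

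Of 22 genes for heme-containing proteins and heme attachment 15 were tested. In siSLC25A1 1 rose and 1 fell, in siACLY 2 rose and 4 fell, and in siACO1 3 rose and 7 fell, with medians of -0.04, -0.12 and -0.12. The calls among all tested genes were 19.6%, 36.7% and 37.1%, so the share called was near that of all genes in siACLY and below it in siSLC25A1. The number that fell in siSLC25A1 was 5 without siACO1 replicate 3 or with only the groups compared in the fit. Of all tested genes, 4131 of 16601 and 3923 of 15190 were called in those fits, up from 3173 of 16197. The number that rose in siACO1 was 1 without siControl replicate 3. When siACO1 replicate 3 was left out, 2 rose and 7 fell in siACO1. STEAP3, a ferrireductase, rose by 0.27 in siSLC25A1, and fell by 0.46 in siACLY and by 1.14 in siACO1 (adjusted p = 1.25e-14). COX10, which makes heme A from heme, fell by 0.56 in siACO1 (adjusted p = 1.25e-08). CAT, the heme enzyme catalase, rose by 0.29 in siACLY and by 0.51 in siACO1 (adjusted p = 2.37e-07). CYP1B1, a cytochrome P450, fell by 0.95 in siACO1 (adjusted p = 0.000438) from 2.88 to 1.46 CPM.

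**Figure D4:**
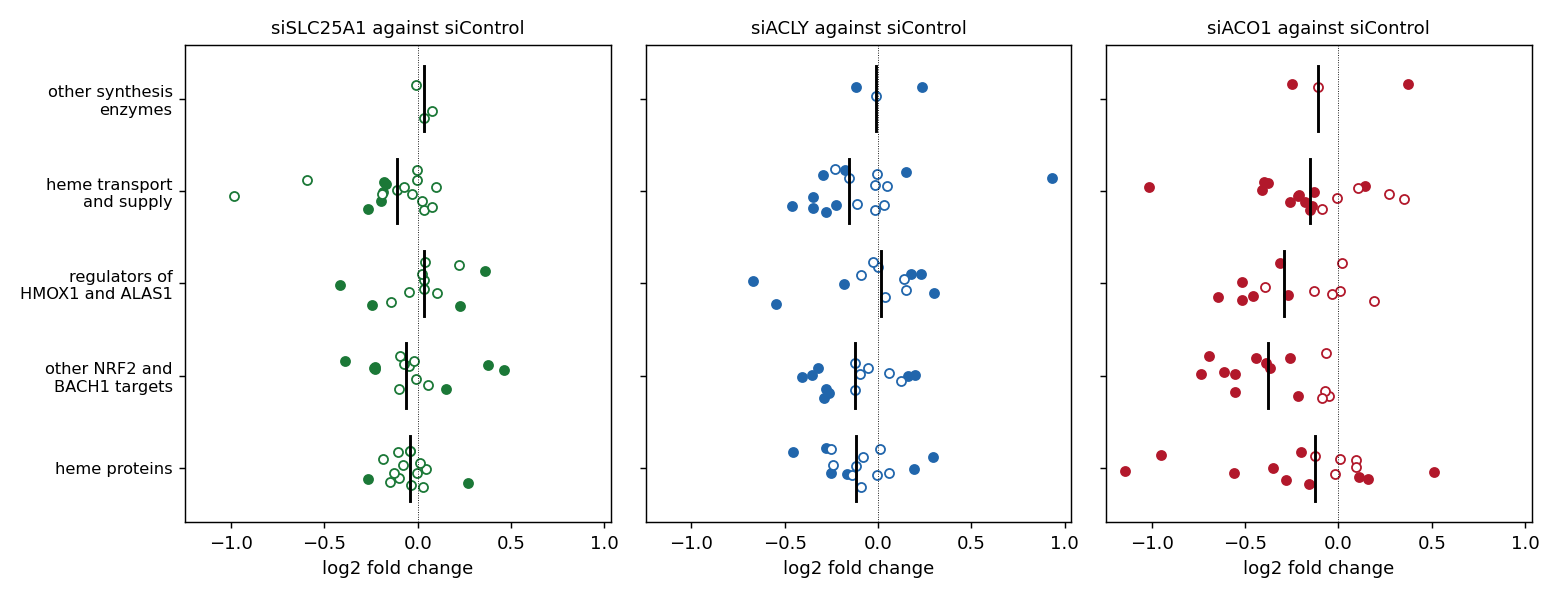
Log2 fold changes of the tested genes of the 5 pathway lists in each knockdown against siControl, with filled points for called genes and a black bar at the median of each list. In siACO1 the 14 other NRF2 and BACH1 targets hold 10 that fell and none that rose, where 19.3% of all tested genes fell and 17.8% rose. The lists were chosen with earlier results of these data known.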

How the data were processed

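RNA of 12 MiaPaCa-2 libraries was captured by its poly(A) tail and primed with random hexamers, per the labels' protocols. The authors deposited 1 table of raw read counts per gene, per the file headers. The submitters' processing notes name STAR 2.7.0e, Trim Galore and DESeq2, and the builds GRCh38 and GRCm39, with no role. The counting tool, annotation and use of strand are not given in the sources used here.

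Symbols matched 62700 of the 70116 identifiers. Counts were filtered with filterByExpr, scaled by TMM, and all 4 groups entered 1 quasi-likelihood fit (edgeR 4.0.16 under R 4.3.3, robust setting) that had no block. All 6 pairs of groups were tested two-sided, with Benjamini-Hochberg adjustment over 16197 genes and a threshold of 0.05. The labels do not say that replicates were separate cultures, so p-values measure the spread between these samples. The fits were tested on simulated counts with the same spread setting for every gene and changes in siACLY alone. Those counts held no library that stood apart, so the test does not bear on siACO1 replicate 3. Places and exon lengths are those of GENCODE 29 and may differ from the authors' annotation. The 9 genes and the pathway lists were chosen with earlier results of these data known. Called enzymes of the first list are named, except 1 that is not reported here, and from each other list the 4 called genes with the largest change against siControl that reached 1 CPM.

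Alternatives were other scalings, DESeq2 1.42.0, other filters (none, or at least 10 counts in every library), a threshold of 0.01, only the groups compared, a replicate block, and leaving out each library.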

Additional observations from a re-analysis of the deposited data

How the results depend on the processing

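Each of the 48 single-gene log2 fold changes was recomputed under 20 alternatives, 960 values in all. Of these, 933 stayed on the same side of the threshold, 19 lost the call and 8 gained it. None of the 23 called results changed sign, while 29 values of uncalled results changed sign or rounded to 0. The lost calls were UROD in siSLC25A1, CPOX in siACLY, both against siControl, and UROD and BLVRB in siSLC25A1 against siACO1. The count of heme genes called in siSLC25A1 against siACLY was 2, and ran from 2 to 4 when 1 library was left out, reaching 4 without siACO1 replicate 3. Over all tested genes the calls in that comparison also rose without this library, from 5472 to 6332. Against siControl they rose from 3173 to 4131 in siSLC25A1 and from 5944 to 6736 in siACLY. The cause was not tested. Counts for the pathway lists against siControl were recomputed under each alternative except the threshold of 0.01. Those that moved by over 1.5 times and by more than 1 gene are given beside the lists. A threshold of 0.01 left 1941 of the 3173 genes called in siSLC25A1. With library totals alone the share of higher genes among all calls was 61.0% in siACLY, where it had been 50.1%, and 59.5% in siACO1, where it had been 47.9%.

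With the replicate number as a block, the counts of heme genes called were 5, 5 and 4 against siControl and 2, 4 and 3 between knockdowns, as without it. The numbers were not taken to pair the samples, since the labels do not say that a number marks a shared culture. Correlations of deviations from the group means did not decide this. They ran from -0.13 to 0.294 in same-numbered pairs, 5 of 18 of them over 0.1, and from -0.261 to 0.231 in different-numbered pairs. Of 12 libraries, 9 correlated better with their own number.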
